A study of Drosophila melanogaster with 10 samples.

Results

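Neuropeptides and peptide hormones are short signalling peptides cut from longer precursor proteins. Neurons and endocrine cells pack them into dense-core vesicles and release them to act, mostly through G protein-coupled receptors, on neighbouring neurons or on distant organs. In the fly brain they are known for setting hunger, satiety, water balance, sleep and moulting, and several are made in small groups of neurosecretory cells that project to the haemolymph. The precursor genes described here form a list of 36 names, with the insulin-like peptides left out, and were matched to the gene names of the deposited table without regard to case. Of these, 31 had a row among the 11621 genes of the table. Lk (leucokinin), ETH (ecdysis triggering hormone), Burs and Pburs (the subunits of bursicon) and Gpa2 (a glycoprotein hormone subunit) had no row and are not analysed here.

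RNA was sequenced from brains of male Drosophila melanogaster labelled wild-type (W1118), a white-eyed laboratory strain, at 4 to 7 days of age. For 5 libraries the food was low in protein and high in carbohydrate (LPHC, protein to carbohydrate 0 to 1), and for the other 5 it was high in protein and low in carbohydrate (HPLC, 1 to 2), each at 360 g per L. Per the design text of the series, flies responded less to the taste of sucrose after LPHC and more after HPLC. The labels do not say how long the flies ate the diets, how many brains made up a library or whether libraries came from separate cultures, so a p-value here reflects only variation among these libraries, which may be technical. Levels are normalised read counts, in which each library's reads are divided by its size factor. Recovered reads ran from 19834344 to 38402635 per library, and 3 reads are worth between 2.09 and 4.19 normalised counts. Differences are log2 fold changes of HPLC minus LPHC with their standard error (SE), on the scale of log2(normalised count + 1), and a gene is called when its limma p-value, adjusted over the 9896 genes whose mean reached 10, is below 0.05.

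Of the 31 precursor genes, 28 passed the minimum mean of 10 and were tested, while Eh, Akh and RYa lay below it. On HPLC, 4 of the 28 were higher (Nplp2, CCHa2, Nplp3 and Dh44) and 11 were lower (Hug, Proc, Dh31, Gpb5, Crz, Mip, Dsk, AstC, Capa, sNPF and Nplp1). Over all tested genes, 40.9% were called, 22.1% as higher and 18.9% as lower on HPLC. These shares were not matched for level. The median of the mean normalised counts was 2154 for the precursors with a row and 543 for all genes of the table. Among the rises, Nplp2, CCHa2 and Nplp3 reached 2-fold or more (3 of the 28, against 6.41% of all genes), while Dh44 rose by 25.7%. The falls lay between 12.2% and 31.6% of the LPHC mean. For 4 genes every HPLC library lay above every LPHC library (17.4% of all genes did so), and for 6 every HPLC library lay below (11.7%). The median log2 fold change of the 28 was -0.19, beside -0.03 for all tested genes. A value below 0 was found for 23 of the 28 and for 5460 of all 9896 tested genes. Other scalings of the libraries shifted rises and falls alike and so changed the number of small falls that were called. Upper-quartile scaling called 4 precursors higher and 20 lower (17.0% and 38.7% of all genes), quantile normalization 4 and 19 (17.0% and 39.4%), and scaling on neuron markers 5 and 2 (33.5% and 1.64%). In bulk tissue, fewer cells of a type and less RNA per cell cannot be told apart.

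**Figure D1:**
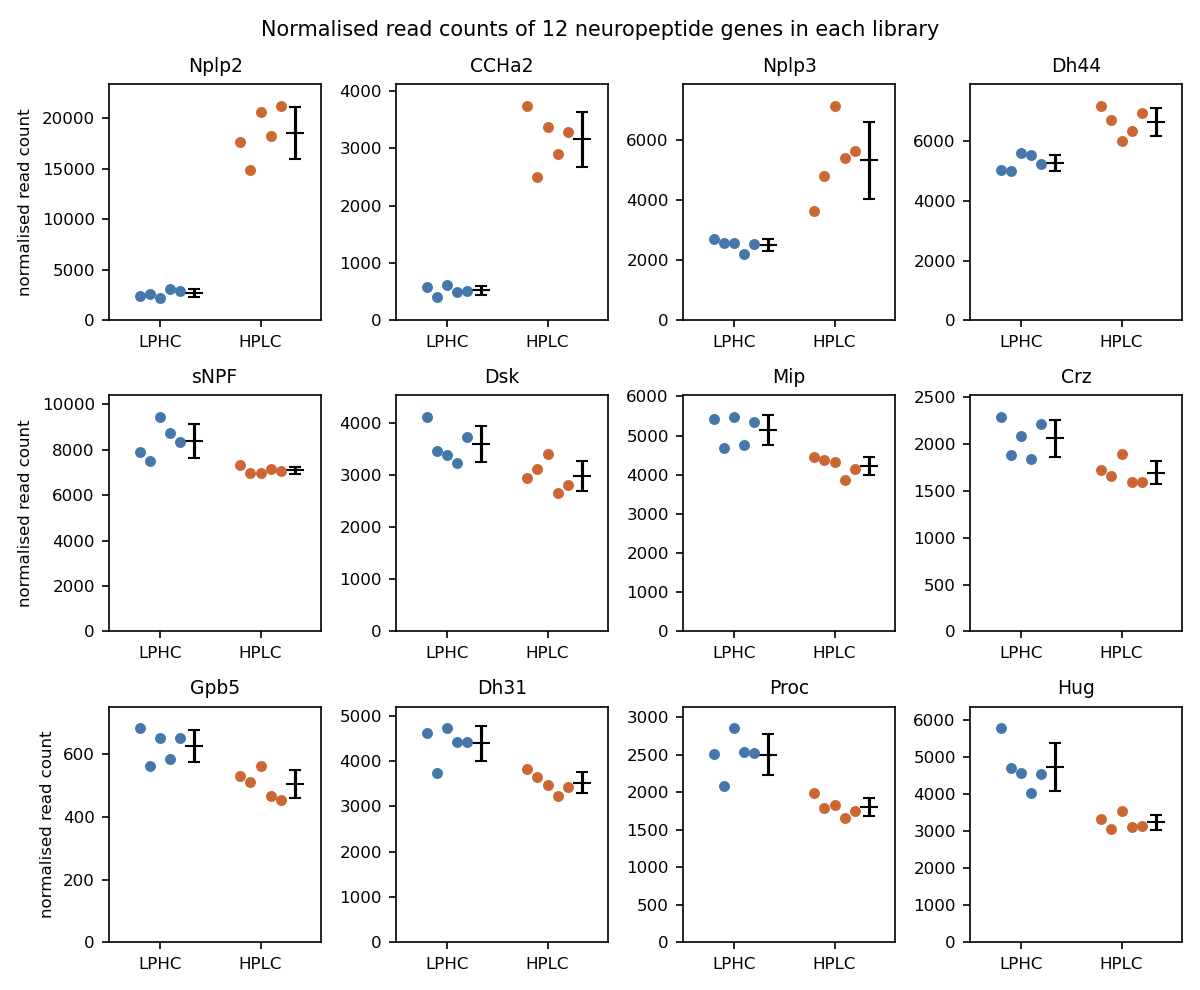
Normalised read count (vertical axis, from 0) of the 12 precursor genes with the smallest adjusted p in each library, LPHC in blue and HPLC in orange, with replicates 1 to 5 from left to right and the mean and SD (n = 5) beside them in black. HPLC values of Nplp2, CCHa2, Nplp3 and Dh44 all lie above the LPHC values, and those of sNPF, Mip, Gpb5, Proc and Hug all lie below.

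Among the peptides tied to feeding, energy and the gut, CCHa2 stood apart from the others. CCHa2 is a peptide of fly gut and fat body known to be controlled by nutrients and to act on a receptor in the brain that promotes release of insulin-like peptides. CCHa2 had normalised counts of 579, 408, 624, 500 and 518 in LPHC replicates 1 to 5 and of 3742, 2494, 3381, 2897 and 3293 in HPLC replicates 1 to 5. The lowest HPLC library was far above the highest LPHC library, and the spread was similar on both diets (coefficients of variation of 15.7% and 15.2%). The mean rose 6.01-fold, a log2 fold change of 2.59 ± 0.12 (SE, n = 5 each, limma adjusted p = 5.76e-10). CCHa1, the related peptide of gut endocrine cells and clock neurons, had 278 ± 17.4 on LPHC and 260 ± 17.7 on HPLC (SD) and was not called (limma adjusted p = 0.331).

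Hug, the precursor of the hugin peptide of neurons in the taste centre of the brain that is known to restrain feeding, showed the largest fall. Hug was at 5776, 4699, 4568, 4037 and 4526 in LPHC replicates 1 to 5 and at 3326, 3054, 3533, 3113 and 3129 on HPLC. LPHC replicate 1 was the highest, and even the lowest LPHC library exceeded every HPLC library. The log2 fold change was -0.54 ± 0.08 (SE, limma adjusted p = 3.68e-05), a mean on LPHC 1.46 times that on HPLC.

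Other peptides of this group fell by less. Mip, the myoinhibitory peptide precursor linked to satiety and sleep, was at 5431, 4669, 5474, 4768 and 5351 on LPHC and at 4454, 4367, 4317, 3871 and 4151 on HPLC, without overlap (log2 fold change -0.28 ± 0.06, limma adjusted p = 0.00215). sNPF, short neuropeptide F, known to promote feeding, was at 7895, 7491, 9442, 8730 and 8334 on LPHC and at 7340, 6993, 6955, 7135 and 7058 on HPLC (-0.24 ± 0.06, limma adjusted p = 0.00765). The HPLC libraries of sNPF were nearly equal, with a coefficient of variation of 2.15% against 9.01% on LPHC, and all lay below the LPHC libraries. Crz, corazonin, a stress and metabolism peptide, was at 2286, 1880, 2085, 1840 and 2211 on LPHC and at 1721, 1657, 1894, 1594 and 1591 on HPLC (-0.28 ± 0.07, limma adjusted p = 0.00377). Dsk, drosulfakinin, the fly relative of cholecystokinin and a satiety signal, was at 4114, 3469, 3385, 3239 and 3729 on LPHC and at 2940, 3120, 3405, 2650 and 2805 on HPLC (-0.27 ± 0.08, limma adjusted p = 0.0103). For both Crz and Dsk, HPLC replicate 3 reached into the LPHC range and the other HPLC libraries stayed below it.

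AstC, allatostatin C, which inhibits several endocrine cells, had 4835 ± 675 on LPHC and 4062 ± 421 on HPLC (SD over 5 libraries), with overlapping libraries and a call close to the threshold (log2 fold change -0.25 ± 0.09, limma adjusted p = 0.0451). That call was lost when any one of LPHC replicates 1, 3, 4 or 5 or HPLC replicates 2, 3, 4 or 5 was left out, with log2 fold changes from -0.18 to -0.26 and limma adjusted p from 0.0564 to 0.124, and under TMM scaling (-0.23, limma adjusted p = 0.0624). NPF, neuropeptide F, a promoter of feeding and reward, had 1625 ± 208 and 1420 ± 132 and missed the threshold (-0.19 ± 0.08, limma adjusted p = 0.0747). It passed with LPHC replicate 4 left out (limma adjusted p = 0.0266) and with HPLC replicate 3 left out (0.0192). Tk, the tachykinin precursor of brain and gut, was at 2865 ± 213 and 2576 ± 224 (limma adjusted p = 0.0802, and 0.0497 and 0.0128 without the same libraries in that order). AstA, allatostatin A, a satiety peptide, was at 1667 ± 113 and 1576 ± 72.9 (limma adjusted p = 0.283). SIFa, of a few large neurons that promote feeding, was at 552 ± 53.8 and 530 ± 64.7 (0.596).

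Akh, adipokinetic hormone, is made in the corpora cardiaca, endocrine glands behind the brain, and mobilises stored fat and sugar. Only 43 reads on LPHC and 20 on HPLC were counted for it over 5 libraries each, a mean normalised count of 8.28 ± 2.99 and 4.23 ± 2.92. RYa, the precursor of RYamides, had 47 and 26 reads. The diets overlapped for both, single libraries held as few as 2 reads, and neither was tested.

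Among peptides of water and ion balance, Dh44 rose while Dh31 and Capa fell. Dh44, the fly relative of corticotropin-releasing factor, is made by neurosecretory neurons of the brain that are also known to sense nutrients. Dh44 was at 5031, 5005, 5589, 5529 and 5245 in LPHC replicates 1 to 5 and at 7179, 6706, 6010, 6346 and 6951 on HPLC. Every HPLC library was higher, and the mean was 25.7% above that on LPHC (log2 fold change 0.33 ± 0.06, limma adjusted p = 0.000435). Dh31, a calcitonin-like diuretic hormone also tied to sleep and gut movement, was at 4632, 3745, 4733, 4424 and 4431 on LPHC and at 3828, 3661, 3467, 3221 and 3420 on HPLC (-0.32 ± 0.07, limma adjusted p = 0.00147). LPHC replicate 2 alone lay within the HPLC range of Dh31.

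Capa, whose peptides act on the Malpighian tubules, was at 7325 ± 826 on LPHC and 6172 ± 555 on HPLC (SD over 5 libraries), with overlap and a log2 fold change of -0.25 ± 0.08 (limma adjusted p = 0.0227). The adjusted p rose to 0.0591 without LPHC replicate 1, 0.0558 without LPHC replicate 3, 0.0688 without HPLC replicate 4 and 0.0559 without HPLC replicate 5. ITP, an ion transport peptide that acts against water loss, was at 6108 ± 568 and 6295 ± 307 (0.05 ± 0.07, limma adjusted p = 0.607).

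The 4 neuropeptide-like precursors (Nplp genes), first found in peptide surveys of the fly nervous system, held the largest rise of all 28 genes and also a fall. Nplp2 was at 2452, 2644, 2249, 3156 and 2958 on LPHC and at 17606, 14921, 20646, 18289 and 21215 on HPLC. Its mean rose 6.89-fold (log2 fold change 2.78 ± 0.10, limma adjusted p = 4.95e-12), and its part of all reads of the 31 precursors went from between 2.33% and 3.59% on LPHC to between 15.2% and 20.4% on HPLC. Nplp2 transcripts are also known from the fat body. Nplp3 was at 2717, 2571, 2570, 2200 and 2533 on LPHC and at 3642, 4806, 7149, 5426 and 5649 on HPLC, a 2.12-fold rise of the mean (1.05 ± 0.14, limma adjusted p = 6.40e-05). All HPLC libraries of Nplp3 were above those on LPHC but differed more among themselves (coefficient of variation 24.0% against 7.61%), with HPLC replicate 3 highest and replicate 1 lowest. Nplp1, whose peptides occur in clock and other neurons, had 6612 ± 345 and 5806 ± 233 without overlap (-0.19 ± 0.06, limma adjusted p = 0.0145). Nplp4 was at 133 ± 19.4 and 112 ± 21.7 and was not called (0.164).

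Among peptides that act on muscle, Proc, the precursor of proctolin, was at 2510, 2082, 2860, 2538 and 2528 on LPHC and at 1989, 1789, 1837, 1658 and 1746 on HPLC. The groups did not overlap, and the log2 fold change of -0.47 ± 0.07 (limma adjusted p = 7.64e-05) was the second in size among the falls. Ms, myosuppressin, which slows heart and gut muscle and is also made in brain neurosecretory cells, was at 8955 ± 657 and 8088 ± 700 and was not called (SD, n = 5 each, limma adjusted p = 0.110).

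Gpb5, a glycoprotein hormone subunit that pairs with the product of Gpa2, was at 684, 563, 652, 587 and 652 on LPHC and at 530, 512, 563, 469 and 455 on HPLC (-0.31 ± 0.07, limma adjusted p = 0.00279). The highest HPLC library was just below the lowest LPHC library of Gpb5.

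Clock and modulatory peptides did not pass the test. Pdf, pigment-dispersing factor, the main output peptide of the clock neurons, was at 6888 ± 549 on LPHC and 6504 ± 508 on HPLC (limma adjusted p = 0.367). FMRFa, a precursor of several muscle-modulating and sleep-related peptides, was at 790 ± 63.6 and 719 ± 43.0 (0.111). amn, amnesiac, a gene of memory and sleep, was low and variable, with means of 44.0 and 39.4 and SDs that were 27.3% and 36.0% of them (0.587), and HPLC replicate 3 set its sign, with log2 fold changes of -0.20 and, without that library, 0.06. Moulting hormones, which act mainly before adulthood, were the lowest group. Ptth, which drives steroid synthesis in larvae, was at 73.7 ± 7.83 and 58.0 ± 11.3 (-0.36 ± 0.15, limma adjusted p = 0.0641, and 0.0168 without HPLC replicate 3). CCAP, crustacean cardioactive peptide, was at 82.8 ± 11.7 and 79.2 ± 11.1 (0.733), and its log2 fold change was -0.07 with all libraries and 0.03 without HPLC replicate 4. Eh, eclosion hormone, had 34 reads on LPHC and 24 on HPLC in all and was not tested.

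**Figure D2:**
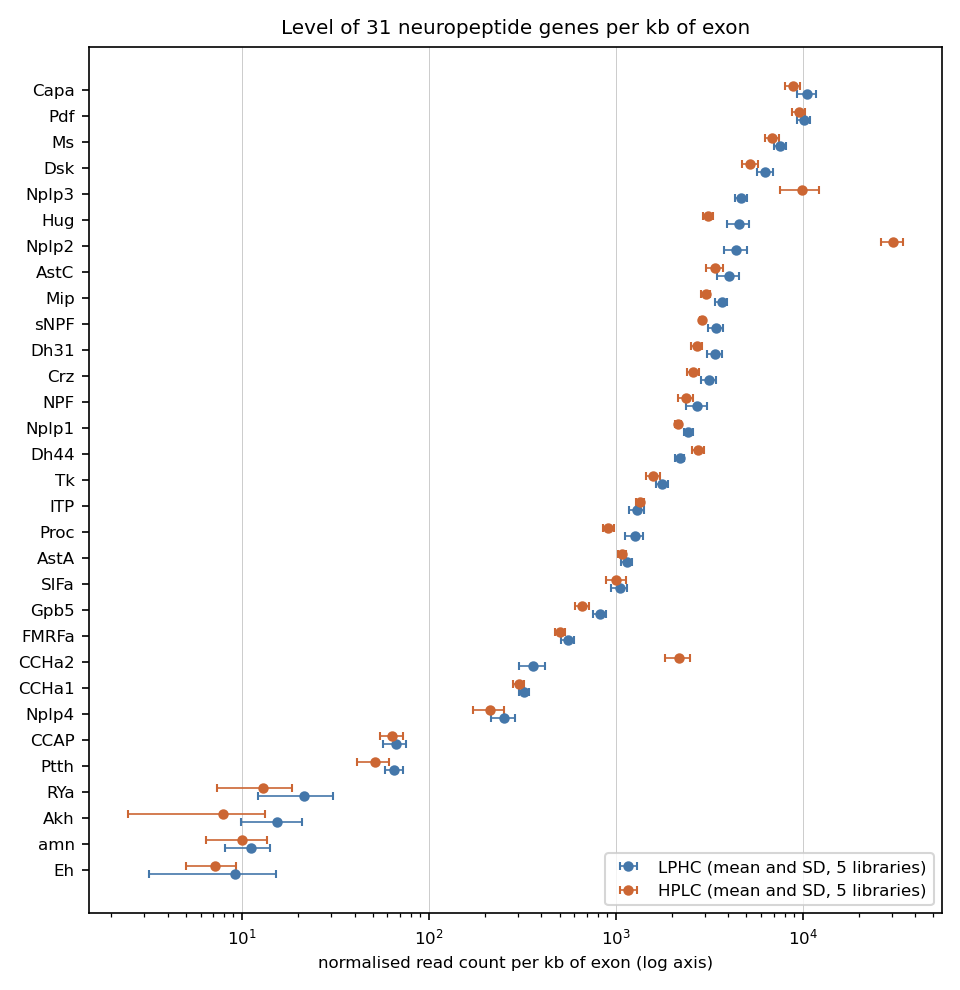
Mean normalised read count per kb of exon (horizontal log axis) of the 31 precursor genes on LPHC (blue) and HPLC (orange), with SD over 5 libraries, ordered by the LPHC mean. Nplp2 and CCHa2 move far to the right on HPLC and most other genes shift slightly to the left.

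To set precursors beside each other, levels were divided by the exon length of each gene model. On LPHC, Capa led with 10540 ± 1189 normalised counts per kb, followed by Pdf at 10130 ± 807 and Ms at 7602 ± 557 (SD, n = 5). Capa and Pdf did not differ beyond their spread, with Capa above Pdf in 3 of 5 libraries. Dsk followed with 6304 ± 605, and Nplp3, Hug, Nplp2 and AstC came next between 4023 and 4680 per kb, with overlapping spreads. At the other end, RYa, Akh, amn and Eh lay between 9.21 and 21.4 per kb, with CCAP and Ptth at 66.3 and 65.3. On HPLC, Nplp2 moved from seventh to first place at 30386 ± 4149 per kb, followed by Nplp3 (9915 ± 2377), Pdf (9565 ± 747) and Capa (8881 ± 799). Nplp3 lay above Pdf in 3 of 5 HPLC libraries, while Pdf lay above Capa in 5 of 5, although the SDs of these neighbours overlapped. CCHa2 moved from place 23 (360 ± 56.4 per kb) to place 15 (2167 ± 328). These levels assume that every exon of the model is used, which was not tested.

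Summed over all 31 precursors, the share of reads was 0.331% ± 0.0238 (LPHC) and 0.357% ± 0.0192 (HPLC), as mean and SD of 5 libraries each, and the ranges overlapped.

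Markers of other tissues moved with the diet in the same libraries. Of 13 fat body markers with a row, 10 were tested and all 10 were higher on HPLC (22.1% of all genes were). The summed share of the 13 lay between 0.0597% and 0.0786% for LPHC and between 0.316% and 0.395% for HPLC, 5.20-fold as a ratio of means (exact permutation adjusted p = 0.0102 over 9 marker lists, from the smallest p of 0.00794 that the design allows). The called markers ran from 1.34-fold (Lip4) and 2.45-fold (ppl) through 4.87-fold (apolpp, which held most of the sum) to 42.4-fold (Gnmt), 87.2-fold (Lsp1beta) and, from a mean of 3.25 to one of 9177 normalised counts, Lsp2. Fbp2 and Lsp1gamma had means of 1.87 and 3.06 normalised counts on LPHC and of 1.19 and 2.15 on HPLC, and Fbp1 was at 11.4 and 7.93. These 3 were too low to be tested. These values stand beside the 6.89-fold rise of Nplp2 and the 6.01-fold rise of CCHa2, both known from fat body, and the part of fat body RNA in those rises was not tested. jhamt, a marker of the corpus allatum, an endocrine gland attached to the brain, was also higher on HPLC (68.3 ± 13.1 against 27.2 ± 9.09, limma adjusted p = 0.000122). Gut and salivary markers rose from between 0.00190% and 0.00264% to between 0.0117% and 0.0143% of reads, and haemocyte markers from between 0.0454% and 0.107% to between 0.134% and 0.151% (exact permutation adjusted p = 0.0102 for each list). Of 8 gut and salivary markers, 6 had a row, and alphaTry and betaTry had none. The 4 tested, Amy-p, Amy-d, Mal-A1 and Mal-B1, were all called higher (22.1% of all genes were). Jon65Aiii (4.60 on LPHC, 1.72 on HPLC) and Jon99Ci (5.56 and 5.84) were too low to be tested. Of 10 haemocyte markers, 5 were called higher (22.1% of all genes were), with the largest rise in Glt (911 to 10028). Hml, Ppn, Col4a1, vkg and PPO2 were not called.

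Neuron markers were lower on HPLC. The 12 genes, which include elav, nSyb, brp and Syt1, took 0.959% to 1.11% of reads on LPHC and 0.748% to 0.899% on HPLC (exact permutation adjusted p = 0.0102). Of the 12, 5 were called lower (18.9% of all genes were). The median log2 fold change of the 12 was -0.20 and the lowest -0.32. Of the 11 precursors called lower, 8 lay within the range of the neuron markers, Dh31 lay at its lower end (-0.32, as for para, the lowest marker), and Hug and Proc lay below it. The part of the lower neuron signal in the falls of the precursors was not tested. The summed share of photoreceptor markers was also lower, at 11.6% to 12.8% of reads on LPHC and 8.65% to 10.7% on HPLC. Muscle markers took 0.546% to 0.629% and 0.491% to 0.513% (exact permutation adjusted p = 0.0102 for each list). Singly, 5 of 15 photoreceptor and 6 of 10 muscle markers were called lower (18.9% of all genes were). ninaE, the most abundant photoreceptor marker, fell from 1595426 to 1301169, while trp was level (log2 fold change -0.001). Mhc, the most abundant muscle marker, was not called (0.05). The glial share did not pass (exact permutation adjusted p = 0.0893, and 0.0179 without HPLC replicate 1). Among Hox and trunk genes of the ventral nerve cord, where some Capa neurons lie, Antp was at 19.2 ± 3.79 on LPHC and 16.8 ± 2.64 on HPLC, Ubx ranged from 19.6 to 29.0 and from 13.7 to 28.4, and neither was called (limma adjusted p = 0.554 and 0.111). The summed share of these trunk genes did not pass either (0.706), until tsh, the most abundant of them, was left out, and then it was lower on HPLC (log2 difference -0.39, exact permutation adjusted p = 0.0363).

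When each library was scaled so that the neuron markers were level, the median of all genes moved from -0.03 to 0.18, and the precursors called higher were Nplp2 (2.99), CCHa2 (2.79), Nplp3 (1.26), Dh44 (0.53) and ITP (0.25, limma adjusted p = 0.0241), all as log2 fold changes. Hug (-0.33, limma adjusted p = 0.0326) and Proc (-0.26, limma adjusted p = 0.0275) were still called lower. The other 9 falls were not called, and Nplp1 turned to 0.02 (limma adjusted p = 0.870). This scaling moved every precursor by 0.20 to 0.21 on the log2 scale, so small negative values, such as those of NPF, Tk, AstA, SIFa, CCHa1, Pdf, FMRFa, Ms and CCAP, became positive by construction. In the other direction, upper-quartile scaling moved them by -0.11 and added CCHa1, Nplp4, NPF, AstA, Tk, Pdf, FMRFa, Ms and Ptth to those called lower (limma adjusted p from 0.00441 to 0.0401), and ITP became negative.

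**Figure D3:**
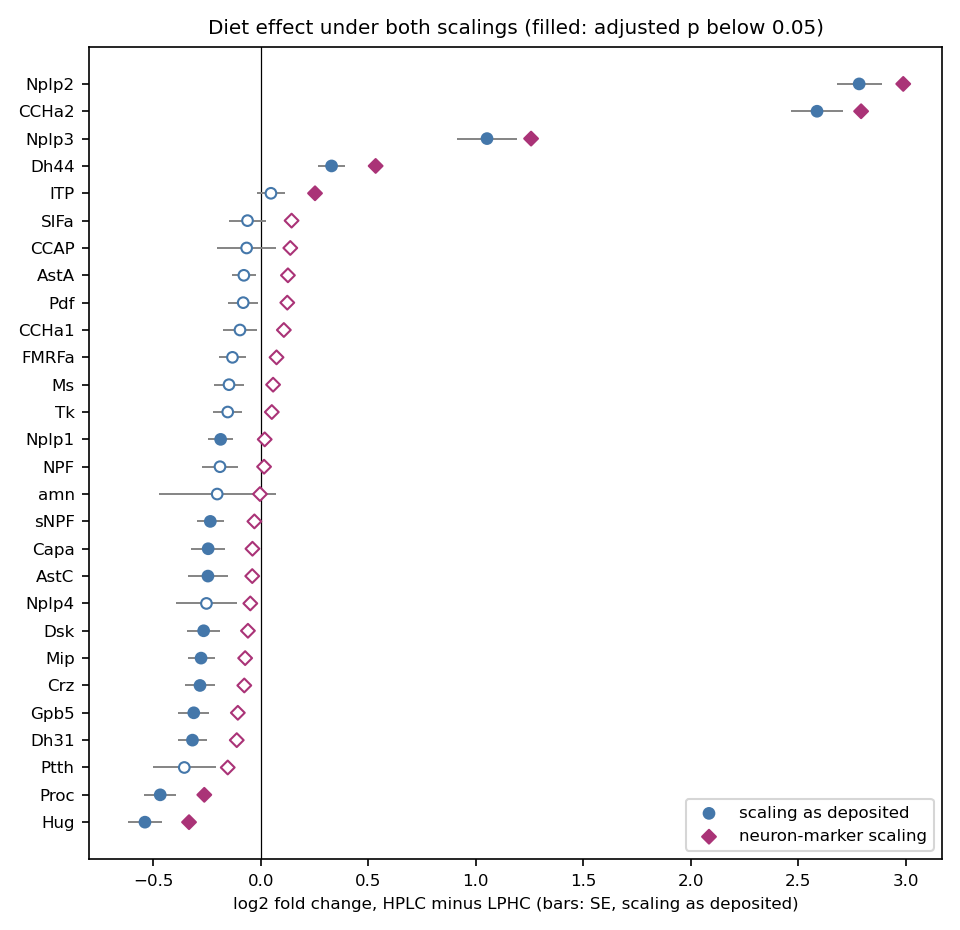
Log2 fold change, HPLC minus LPHC, of the 28 tested precursor genes as deposited (circles, bars show SE) and with libraries scaled on neuron markers (diamonds). Filled symbols have an adjusted p below 0.05, and Nplp2, CCHa2, Nplp3, Dh44, Hug and Proc are filled in both.

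Within each diet the precursors tended to be high or low in the same libraries. LPHC replicates 1 and 3 held the highest value of 22 of the 28 genes and replicates 2 and 4 the lowest of 22. HPLC replicates 1 and 3 held the highest of 24, and replicate 4 alone the lowest of 13. The median deviation of the 28 genes from their diet mean ran from -0.09 (LPHC replicate 2) to 0.11 (LPHC replicate 1) and from -0.10 (HPLC replicate 4) to 0.10 (HPLC replicate 3) on the log2 scale. The summed share of the neuron markers was highest on LPHC in replicate 3 (1.11%) and lowest in replicate 1 (0.959%), and lowest on HPLC in replicate 3 (0.748%). Nplp2 departed from the common order on LPHC, with its highest value in replicate 4 and its lowest in replicate 3.

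**Figure D4:**
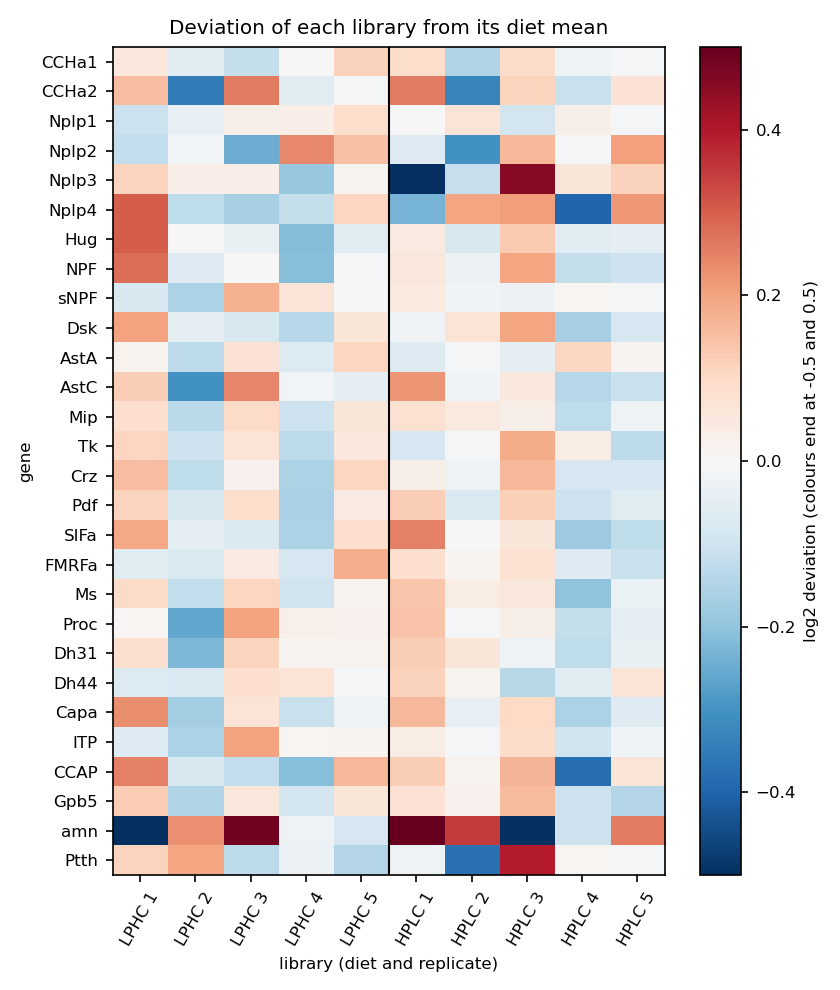
Deviation of each library (columns) from the mean of its diet for the 28 tested precursor genes (rows), in log2 units, with red above and blue below the mean and colours ending at -0.5 and 0.5. Columns of LPHC replicate 1 and of HPLC replicates 1 and 3 are mostly red, and those of LPHC replicates 2 and 4 and HPLC replicate 4 mostly blue.

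Genes that process and release peptides were mostly lower on HPLC by amounts like those of the precursors. Of 16 tested genes of this kind, 9 were called lower and 1 higher (18.9% and 22.1% of all genes), with a median log2 fold change of -0.18 beside -0.03 for all genes. The falls with the smallest adjusted p were in synaptotagmins of vesicle release, Sytalpha (-0.31 ± 0.06), Syt4 (-0.25 ± 0.06) and Syt7 (-0.31 ± 0.08), and in Rab2, of dense-core vesicle formation (-0.20 ± 0.06; limma adjusted p at most 0.00827). nemy, a cytochrome b561 that serves peptide amidation, was the gene called higher (0.20 ± 0.06, limma adjusted p = 0.0104), a call lost under upper-quartile and quantile scaling. The number called lower was 5 without LPHC replicate 5, where 1547 of all 9896 genes were called lower. It was 6 without LPHC replicate 3, LPHC replicate 4 or HPLC replicate 4 and with a replicate block, and 7 without HPLC replicate 5. Without LPHC replicate 2 or HPLC replicate 3 the number called higher was 2, as under TMM scaling and with DESeq2. Under neuron-marker scaling 4 were called higher (33.5% of all genes) and the 9 falls lost their call. Of 5 neprilysins, membrane peptidases that inactivate peptides, 1 was called lower and 1 higher (18.9% and 22.1% of all genes). Nep1 was the lower one (-0.21 ± 0.05, limma adjusted p = 0.00168). Nep5, with means of only 47.0 on LPHC and 74.0 on HPLC, was the higher one (0.62 ± 0.18, limma adjusted p = 0.0111).

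Receptors of these peptides showed falls of similar size. Of 33 tested, 14 were called lower and 2 higher (18.9% and 22.1% of all genes), with a median of -0.20. AkhR, the receptor of adipokinetic hormone, which is abundant in fat body, was at 506 ± 86.2 on LPHC and rose to 1306 ± 149 (1.38 ± 0.12 as log2 fold change, limma adjusted p = 2.36e-07), while Akh itself was near the detection floor. CrzR, the corazonin receptor, rose by 0.32 ± 0.06 (limma adjusted p = 0.00033), and CCKLR-17D3, a drosulfakinin receptor, and NPFR, the neuropeptide F receptor, had log2 fold changes of -0.32 ± 0.06 and -0.39 ± 0.08 (0.000382 and 0.000525). Of 28 pairs of a tested peptide and a tested receptor, both genes were called lower in 6, which rest on 4 peptides (Hug, Dsk, AstC and Dh31) of the 21 in pairs. Taken singly, 39.3% of the tested precursors and 42.4% of the tested receptors were called lower. Whether pairs fell together more often than these shares give was not tested. Opposite calls were found in 3 pairs, named here after their values were seen: Dh44 rose while Dh44-R1 (-0.36 ± 0.08, limma adjusted p = 0.00121) and Dh44-R2 (-0.21 ± 0.08, 0.0430) fell, and Crz fell while CrzR rose. Upper-quartile and quantile scaling each called 22 receptors lower (38.7% and 39.4% of all genes), while under neuron-marker scaling 8 were called higher (33.5% of all genes) and the 14 falls lost their call. Without HPLC replicate 3, 5 receptors were called higher, as under TMM scaling, and DESeq2 called 4.

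Of 6 further peptide genes outside the 36, Lst and CNMa were called (40.9% of all genes were). Lst, limostatin, a hormone of the corpora cardiaca known to suppress insulin release, was at 650 ± 58.0 on LPHC and rose 3.94-fold to 2562 ± 316 (SD, n = 5 each, 1.97 ± 0.08 as log2 fold change, limma adjusted p = 3.21e-12). The rise of Lst stood beside the few reads of Akh, the defining hormone of the same gland, and the part of gland RNA in it was not tested. CNMa, the precursor of CNMamide, which in fly gut is known to respond to a lack of amino acids, fell from 106 ± 16.5 to 70.0 ± 6.04 (-0.58 ± 0.13, limma adjusted p = 0.00152).

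Exons of 7 of the 36 precursor genes overlap those of another gene in the Ensembl BDGP6 annotation, in each case on the opposite strand, and whether the authors' counting used strand is not given in the sources used here. SIFa shares 21.1% of its exon length with Start1, and ITP, CCAP, amn and Ptth share 6.32% or less with their neighbours, so reads of these genes could be mixed or dropped. For amn the shared part is 3.54%, but its neighbour Hers had a mean normalised count of 5540, beside 41.7 for amn. The part of Hers reads in the amn level was not tested. Lk and ETH are overlapped over 93% and 90.5% of their exon length by antisense RNA genes, and both are among the 5 precursors with no row. Whether that overlap bears on their missing rows was not tested. Burs, Pburs and Gpa2 had no such overlap, and the model of Gpa2 lies on an unmapped scaffold. Every gene with a row had reads in at least 6 libraries, and why the 5 precursors have no row was not tested.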

How the data were processed

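Brain RNA sequencing of 10 libraries was used, 5 per diet, grouped by the diet in their titles. Levels come from 1 table that the authors deposited, in which each value is a gene's read count divided by a factor for its library (unit: signal, never negative). Per the submitters' processing notes, HISAT2 was among the tools. The sources used here give neither its version nor the counting tool, strand setting, annotation or build. Coordinates are therefore left out, and sequences were not analysed here. All deposited values (100%, tolerance 1e-06) were whole multiples of 1 constant per library, and the constants matched DESeq2 median-of-ratios size factors recomputed from the recovered reads. Every listed gene had reads in at least 6 libraries.

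Genes were tested with limma-trend (version 3.58.1, R 4.3.3, robust empirical Bayes, two-sided) on log2 of the deposited signal plus a pseudocount of 1, over 9896 genes with a mean of at least 10; 1725 were left out. P-values were Benjamini-Hochberg adjusted over all tested genes, with a threshold of 0.05. Shares of reads of 9 marker lists were tested by exact permutation of log2 shares, two-sided, adjusted over the lists. edgeR 4.0.16 and DESeq2 1.42.0 on recovered reads, other pseudocounts, filters and scalings, a replicate block and leaving out each library were alternatives. Exon lengths came from the Ensembl BDGP6 annotation, used only for lengths and overlaps. Names were matched exactly, or without case where unambiguous. The limma step was also run on simulated counts with the same dispersion for every gene and few changed genes. That run could not test the choice of scaling, and no conclusion is drawn from it.

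The members, lists, tests and alternatives were chosen with earlier results of these data known, and peptide and receptor pairs were listed after seeing the data. All 31 genes are named. Values per library are given for the 12 genes with the smallest adjusted p, and of the processing, neprilysin, receptor and further peptide lists up to 4 called genes by smallest adjusted p are named. Cell type markers and opposite pairs are named as examples outside that rule.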

Additional observations from a re-analysis of the deposited data

How the results depend on the processing

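Calls of the 4 precursors that rose held under all 21 alternatives run, as did the calls of Hug and Proc as lower. The number called lower, 11 as deposited, was 20 with upper-quartile scaling, 19 with quantile normalization and 2 with neuron-marker scaling, and the number called higher was 4 or, with neuron-marker scaling, 5. The median log2 fold change of the precursors was -0.30 with upper-quartile scaling and 0.017 with neuron-marker scaling (-0.19 as deposited), where the median of all genes was -0.14 and 0.18. Nplp1 also turned to 0.018 with neuron-marker scaling. Leaving out 1 library gave 9 to 13 lower and 4 higher. edgeR and DESeq2 gave 4 higher and 11 lower each. With the replicate block 4 were higher and 12 lower (NPF was added, limma adjusted p = 0.0368), and over all tested genes same-numbered libraries did not deviate together (correlations from -0.02 to 0.01) and no library correlated best with its own number, so the numbers were not read as pairs, although the precursors themselves were high in replicates 1 and 3 on both diets. Leaving out tsh turned the Hox gene share to -0.39. The share lists could not be run without the most abundant marker for the corpus allatum, which has 1 gene. Depth limits Akh, RYa and Eh, with 1 to 14 reads per library.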
